A study of Rattus norvegicus with 48 samples.

Results

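The genes described here are 6 protein-coding genes of the rat mitochondrial genome. They encode the cytochrome subunits of respiratory complexes III and IV and the mitochondrially made subunits of ATP synthase. They were taken by their Ensembl IDs: Mt-co1 (ENSRNOG00000034234), Mt-co2 (ENSRNOG00000030371), Mt-co3 (ENSRNOG00000030700), Mt-cyb (ENSRNOG00000031766), Mt-atp6 (ENSRNOG00000031979) and Mt-atp8 (ENSRNOG00000033299). The set was chosen with earlier results of these data known. All 6 had a row in both count tables, among 17317 genes measured in implanted rats and 17616 in naive rats, of which 15936 were in both.

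Oxidative phosphorylation passes electrons along protein complexes of the inner mitochondrial membrane and uses the resulting proton gradient to make ATP, the supply on which neurons rely for ion pumping and synaptic transmission. Most subunits of these complexes are encoded in the nucleus, and a small core is encoded in the mitochondrial genome. That genome is transcribed into long precursor RNAs that are cut into separate messages, so its genes share their transcription while each message has its own stability. Mt-atp8 and Mt-atp6 remain together on a bicistronic message, in which their reading frames overlap.

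Tissue came from the motor cortex (M1) of wild-type (WT) male Sprague-Dawley rats, whose age at implantation was 12 to 14 weeks. Implanted rats carried a silicon probe with a single shank and were killed 24 h (3 rats), 1 week (5 rats) or 6 weeks (4 rats) later. Naive rats (3) had no implant. Brains were perfused with paraformaldehyde and frozen sections were cut by laser capture microdissection, which isolates a chosen area under a microscope. Tissue up to 100 µm from the shank is called near. Tissue called far was taken some 500 µm away and pooled from several areas around the shank. Naive tissue was taken at the same 2 positions. All 3 kinds of tissue were fixed and captured by similar methods, so no group shows these genes in unfixed tissue.

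The 48 libraries held 3363892 to 12844185 gene counts. A rat with libraries from both hemispheres was summed per position, giving 24 sums from 12 implanted rats and 6 from naive rats. The number of genes with a count ran from 3062 to 16023 per library and was under 6000 in 4 libraries, 3 of them near tissue. The same pair of IDs, ENSRNOG00000043866 and ENSRNOG00000030478, was the most abundant on average, at 16.9% and 10.2% of the counts in implanted rats. Together they held 32.1% ± 4.59 (SD, n = 4) of the counts near and 23.1% ± 2.76 far at 6 weeks. The summed share of the 6 genes is therefore given below with and without them. The lowest count of any of the 6 genes in a library was 239, for Mt-atp8, with a Poisson interval of 210 to 271 (95%, counting error only). Counting error was therefore small beside the differences between rats. The left near library of rat 25 at 24 h stood apart: Mt-co1 made up 0.485% of its counts, against 1.42% in the right near library and 1.16% in each far library of that rat. Because these are bulk samples, more RNA per cell and more cells of a type with much of this RNA cannot be told apart. Lists of cell type markers and of the other genes of oxidative phosphorylation were not analysed here, since the IDs in the files could not be matched to symbols, and the tissue label was not checked against markers for the same reason.

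The 6 genes were among the most abundant rows of the tables. By mean share of counts in implanted rats Mt-atp6 ranked 3 and Mt-co1 ranked 4, followed by Mt-cyb at 9, Mt-co3 at 10, Mt-co2 at 13 and Mt-atp8 at 107. These ranks follow counts that were not divided by gene length, so they do not order the genes by transcript number. Summed, the 6 genes made up 6.19% ± 2.3 of the counts in near tissue at 24 h (SD, n = 3), 6.42% ± 1.42 at 1 week (n = 5) and 6.35% ± 0.454 at 6 weeks (n = 4). In far tissue they made up 5.85% ± 1.39, 4.93% ± 0.711 and 4.43% ± 0.765 at these times. Naive tissue lay within the range of the far means, at 4.86% ± 0.451 (n = 3) at 100 µm and 5.06% ± 0.57 at 500 µm. In 11 of 12 rats the sum of the 6 was higher near, rat 25 being the exception. Near and far groups overlapped at 24 h and at 1 week. At 6 weeks they did not overlap, with near rats from 5.92% to 6.98% and far rats from 3.72% to 5.51%. The share of all genes without such overlap is not given here. The lack of overlap, also for single genes below, is therefore a description only. Without the most abundant pair of IDs in the totals, the near shares were 9.39% ± 4.96, 9.45% ± 2.98 and 9.43% ± 1.32 (SD). These are in order of time, and the far shares were then 7.97% ± 2.67, 6.52% ± 1.22 and 5.8% ± 1.23. Naive tissue was then at 6.07% ± 0.634 at 100 µm and 6.39% ± 0.867 at 500 µm.

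**Figure D1:**
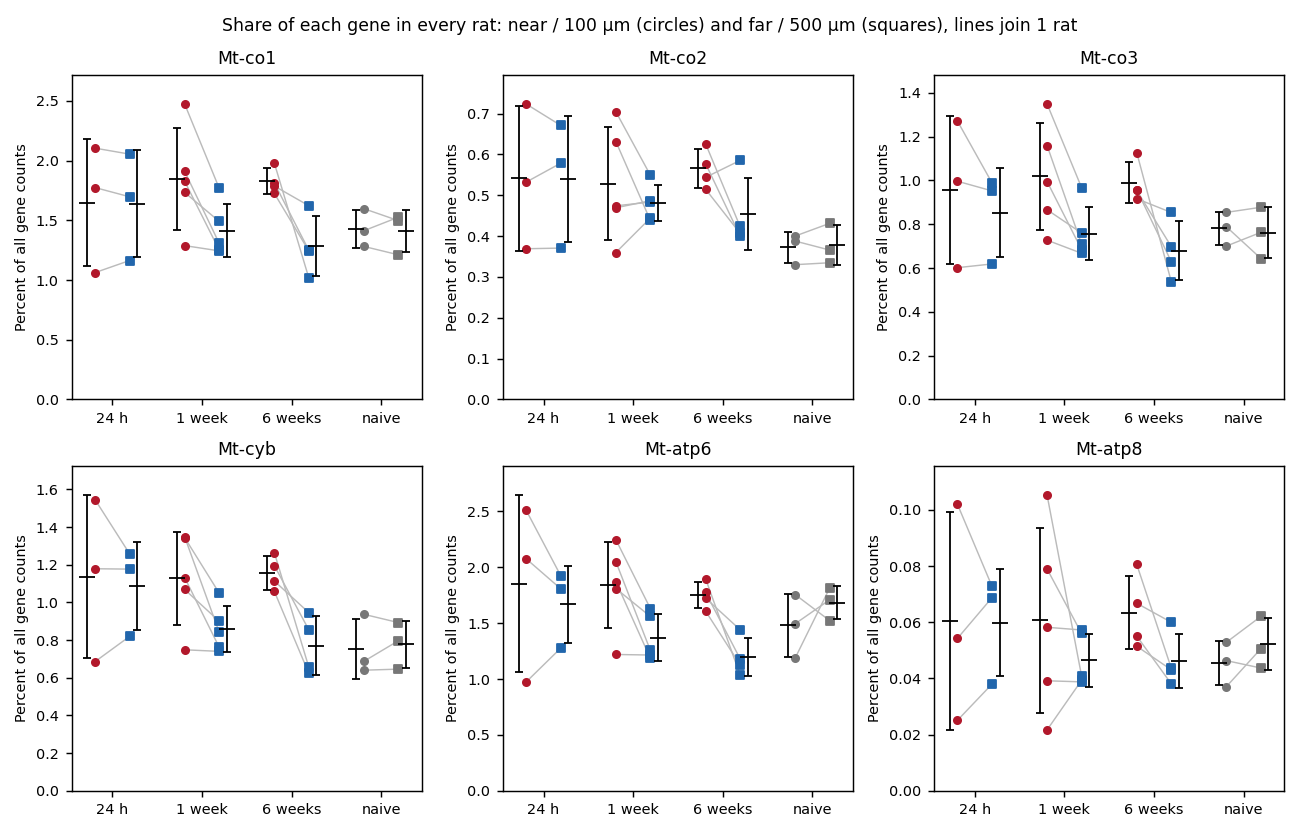
Share of all gene counts (y axis, percent) of each of the 6 genes in every rat, at 24 h, 1 week and 6 weeks after implantation and in naive rats. Circles are near tissue (or naive tissue at 100 µm), squares are far tissue (or naive tissue at 500 µm), grey lines join 1 rat and black bars give the mean ± SD. Within the 6-week group lines slope down from near to far, except for Mt-co2 in 1 rat.

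How the counts were divided among the 6 genes varied little. Over the 30 sums, Mt-atp6 took 28.9% ± 2.5 (SD) of their joint counts and Mt-co1 28.5% ± 1.32. Mt-cyb took 17.4% ± 1.45, Mt-co3 15.4% ± 0.781, Mt-co2 8.88% ± 1.12 and Mt-atp8 0.973% ± 0.205. In proportion to its mean, Mt-atp8 varied most, from 0.343% to 1.46%, and Mt-co3 and Mt-co1 varied least.

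The comparison of near with far tissue of the same rats asks what differed beside the implant. Values are CPM, which put each library on the same total, after TMM, a factor that corrects for differences in composition between libraries. Mt-co1 encodes the catalytic subunit of cytochrome c oxidase (complex IV), which reduces oxygen to water. At 6 weeks its near values were 24430, 17760, 18380 and 19550 CPM in rats 2, 11, 17 and 19, and its far values in the same rats were 8096, 10910, 16990 and 11810 CPM. Every near value was above every far value, and the ratio ran from 1.08 in rat 17 to 3.02 in rat 2. At 1 week near values were 11780, 20510, 12320, 30910 and 18380 CPM in rats 9, 10, 20, 22 and 23, against 11110, 11820, 10940, 17720 and 15660 far. Each rat was higher near, but the groups overlapped. At 24 h near values were 8383, 35870 and 19660 CPM in rats 25, 29 and 30, against 10070, 24470 and 17850 far. Rat 25 was the exception among the 12 rats, with a lower value near than far. The value of a rat is the sum of its libraries. By share of counts the right near library of rat 25 was above its right far library for Mt-co1 (1.42% and 1.16%) and Mt-atp6 (1.45% and 1.28%), and below it for Mt-atp8 (0.0377% and 0.0458%). Rats also differed more from one another at 24 h than the positions did.

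Mt-co2 encodes the subunit that takes electrons from cytochrome c. Its near values at 6 weeks were 7735, 5662, 5593 and 5838 CPM in rats 2, 11, 17 and 19, against 3373, 3500, 6128 and 3863 far. Here rat 17 was lower near, at a ratio of 0.913, and the groups overlapped. At 1 week 2 of 5 rats were higher near, with ratios from 0.757 in rat 20 to 1.71 in rat 10. At 24 h 1 of 3 rats was higher near, rat 29 at 1.54. In all, near tissue was higher in 6 of 12 rats. Whether Mt-co2 differed from Mt-co1 in this respect is given by the test of their ratio further on.

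Mt-co3 encodes the remaining mitochondrially made core subunit of complex IV. At 6 weeks its near values were 13910, 9385, 9427 and 10820 CPM and its far values 4283, 5500, 8941 and 6628 CPM in rats 2, 11, 17 and 19. The groups did not overlap, and the ratio of near to far ran from 1.05 to 3.25. At 1 week all 5 ratios were above 1, from 1.12 to 1.94, and at 24 h the 3 ratios were 0.887 in rat 25, 1.84 in rat 29 and 1.1 in rat 30. Mt-co3 thus had the same order of positions as Mt-co1 in each of the 12 rats.

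Mt-cyb encodes cytochrome b, the heme-carrying subunit of complex III that handles electrons from ubiquinol. Its near values at 6 weeks were 15610, 11720, 11450 and 12000 CPM in rats 2, 11, 17 and 19, against 5220, 7465, 9902 and 5919 far. Near and far rats did not overlap, and the ratio ran from 1.16 to 2.99. At 1 week the ratios were 1.04, 1.9, 1.15, 1.6 and 1.2 in rats 9, 10, 20, 22 and 23. At 24 h they were 0.763, 1.76 and 1.06 in rats 25, 29 and 30. Cytochrome b was therefore higher near in 11 of 12 rats, again with rat 25 as the exception.

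Mt-atp6 encodes the ATP synthase subunit that forms the path for protons through the membrane. At 6 weeks its near values were 23440, 17400, 17740 and 18230 CPM in rats 2, 11, 17 and 19 and its far values 8276, 10330, 15100 and 10700 CPM. The groups did not overlap, and ratios ran from 1.18 to 2.83. At 1 week ratios ran from 1.03 in rat 9 to 1.94 in rat 10, and at 24 h from 0.696 in rat 25 to 1.87 in rat 29. Near tissue was higher in 11 of 12 rats.

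Mt-atp8 encodes a small membrane subunit of ATP synthase and had the lowest counts of the 6. At 6 weeks its near values were 994.9, 504.3, 686.6 and 624.2 CPM, against 347.6, 376.4, 628.3 and 361.6 far, in rats 2, 11, 17 and 19. Each rat was higher near, yet the groups overlapped because the far value of rat 17 was above the near values of rats 11 and 19. At 1 week the 5 ratios spread widely, from 0.426 in rat 20 to 3.06 in rat 10, and in rats 9 and 23 they were both 1.03. The lowest sum, 730 counts, was the near sum of rat 20. At 24 h 1 of 3 rats was higher near. Reads from the overlap with Mt-atp6, and reads from nuclear copies of mitochondrial DNA, could be given to either gene by the counting, whose settings are not given in the sources used here, so the values of Mt-atp8 in particular are uncertain.

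**Figure D2:**
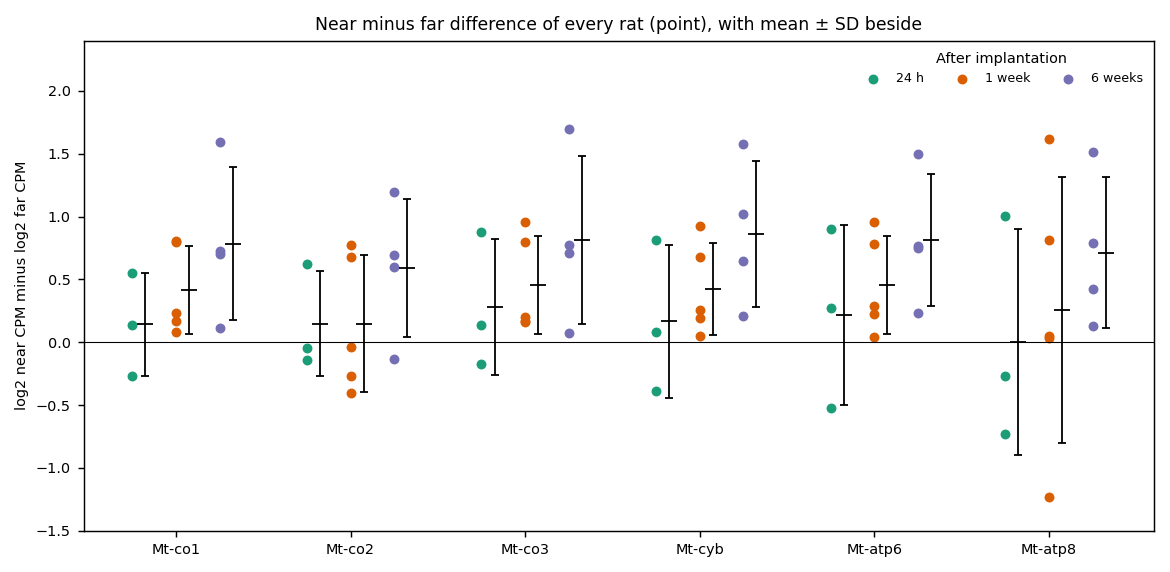
Difference between near and far tissue in every rat (y axis, log2 near CPM minus log2 far CPM) for each gene (x axis), coloured by time after implantation, with the mean ± SD beside the points. At 6 weeks all points but 1, rat 17 for Mt-co2, lie above 0, and Mt-atp8 at 1 week spreads from -1.23 to 1.62.

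Tested with edgeR's quasi-likelihood test, with the rat as a block and p-values adjusted over all 14399 genes tested, 0 of the 6 genes passed an adjusted p of 0.05 at any of the 3 times. Over all genes 0.132% passed at 24 h, 0.396% at 1 week and 0.0764% at 6 weeks. At 24 h the log2 fold changes ran from -0.01 (Mt-atp8) to 0.28 (Mt-co3), with standard errors of 0.27 to 0.31. At 1 week they ran from 0.15 (Mt-co2) to 0.46 (Mt-atp6), and at 6 weeks from 0.59 (Mt-co2, SE 0.25) to 0.86 (Mt-cyb, SE 0.26). The 6-week fold change was 0.78 ± 0.24 for Mt-co1, 0.81 ± 0.27 for Mt-co3, 0.81 ± 0.26 for Mt-atp6 and 0.71 ± 0.24 for Mt-atp8 (± SE). The number of genes with an unadjusted p under 0.05 was 0 of 6 at 24 h, 0 at 1 week and 6 at 6 weeks, beside 3.07%, 6.05% and 2.49% of all genes. The adjusted p at 6 weeks was 0.604 for Mt-atp8 and 1 for the others. For Mt-atp8 the test used a spread of 0.177 where the gene's own was 0.642, as described below. The median log2 fold change of the 6 was 0.16, 0.42 and 0.80 at the 3 times, beside -0.08, -0.66 and -0.05 over all genes. With 4 rats the exact sign-flip permutation test of a single gene (two-sided) cannot go below 0.125, the value it gave at 6 weeks for every one of these genes but Mt-co2 (0.25).

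Averaged over the 3 times, the difference was 0.45 ± 0.14 (SE) for Mt-co1, 0.29 ± 0.15 for Mt-co2, 0.52 ± 0.16 for Mt-co3, 0.48 ± 0.15 for Mt-cyb, 0.50 ± 0.16 for Mt-atp6 and 0.32 ± 0.14 for Mt-atp8. Of all genes 1.51% passed in this comparison and 0 of the 6 did. At an unadjusted p under 0.05 there were 5 of 6, beside 7.78% of all genes, and adjusted p-values ran from 0.301 (Mt-co3) to 0.735 (Mt-co2) by edgeR. Mt-atp8 was among those 5, and its p-value by edgeR rests on the smaller spread named above. A two-sided exact sign-flip permutation test over the 12 rats, in which each rat weighs the same, gave p = 0.00293 for Mt-co3, 0.00537 for Mt-co1, 0.0083 for Mt-cyb and for Mt-atp6, 0.0767 for Mt-co2 and 0.187 for Mt-atp8. Of all genes 13.8% had an unadjusted p under 0.05 in this test, and 4 of the 6 did. Adjusted over all 14399 genes these became 0.119 to 0.578, and 0% of all genes passed.

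The number of these genes called changed from fit to fit. The Wald test of DESeq2 called 0 of the 6 genes at 24 h, 4 at 1 week, 4 at 6 weeks and 5 for the mean of the times, beside 3.69%, 9.07%, 2.3% and 8.22% of all genes. Within edgeR, leaving out any one of rats 2, 10, 11, 20 and 22 gave 4 or 5 calls at 6 weeks, beside 0.16% to 0.272% of all genes, although rats 10, 20 and 22 have no 6-week tissue. Leaving out rat 17 gave 1, beside 0.0782%. Without the low-count filter edgeR called 5 at 6 weeks, beside 0.173% of all genes, and with library totals alone 4, beside 0.271%. In the fits that called Mt-co1 at 6 weeks its fold change ran from 0.52 to 0.90 and its standard error from 0.08 to 0.26, and in those that did not, from 0.67 to 1.01 and from 0.19 to 0.38. Without rat 10 the 6-week fold change of Mt-co1 stayed at 0.78 while its standard error went from 0.24 to 0.09 and its adjusted p from 1 to 4.93e-16. edgeR's test draws the spread of a gene towards a trend over genes of like abundance unless the gene stands out as variable. In the main fit Mt-co1 kept its own quasi-likelihood spread of 0.247, and without rat 10 its own spread was 0.268 but the trend value of 0.035 was used. Over the 7 fits of this kind in which the trend was used for the 5 genes other than Mt-atp8, the genes' own spread was 2.9 to 12.6 times the spread used. Mt-atp8 was drawn to the trend already in the main fit, where 0.177 was used against its own spread of 0.642. Its standard errors and edgeR p-values near against far in the main fit rest on that smaller spread. The direction at 6 weeks was positive for all 6 genes under each of the 23 alternatives.

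**Figure D3:**
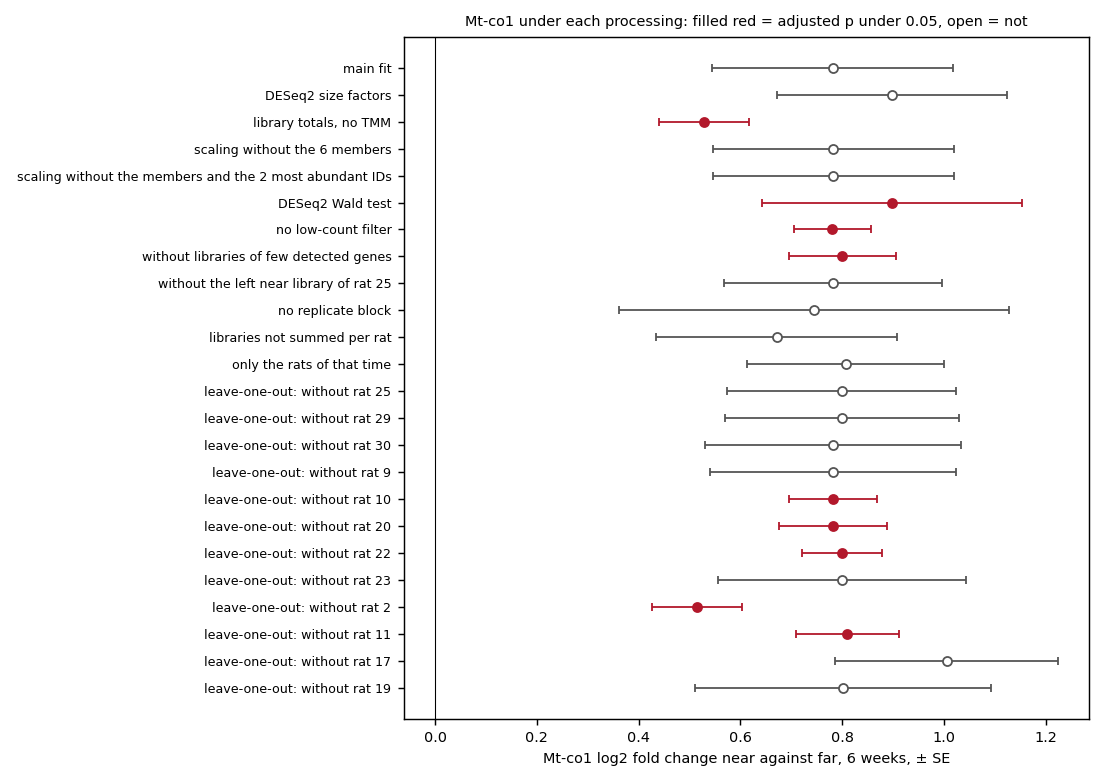
Log2 fold change of Mt-co1, near against far at 6 weeks, ± standard error (x axis) under the main fit and each alternative (y axis). Filled red points had an adjusted p under 0.05 and open points did not. The fold change stayed between 0.52 and 1.01 while the standard error ran from 0.08 to 0.38.

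The share of the most abundant pair of IDs moved with position, and so did scaling. With shares of all counts in place of TMM values, the near minus far difference of Mt-co1 over the 12 rats was 0.33 ± 0.31 (log2, mean ± SD), against 0.47 ± 0.49 with TMM. With that pair of IDs taken out of the totals it was 0.47. In each of these 3 scalings 11 of 12 rats were higher near. For Mt-co2 the count of rats higher near was 6 of 12 with TMM and with shares of all counts, and 8 of 12 with the pair taken out. With the 6 genes and that pair left out of the scaling in the test, the fold change of Mt-co1 was 0.78 at 6 weeks (adjusted p = 1 by edgeR) and 0.45 for the mean of the times, as with them.

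Apart from Mt-co2, at 0.15 at both 24 h and 1 week, each gene had a higher near-far difference at each later time. The change of this difference between times did not pass the test. Between 24 h and 6 weeks the near-far difference changed by 0.44 (Mt-co2, SE 0.39) to 0.72 (Mt-atp8, SE 0.36), higher at 6 weeks. Of the 6 genes 0 were called by edgeR, beside 0.0208% of all genes, and 1 (Mt-atp8) had an unadjusted p under 0.05, beside 1.25% of all genes. The standard error and p-value of Mt-atp8 rest here too on a spread of 0.177, against its own 0.642. From 24 h to 1 week 0 were called, beside 0% of all genes, and 0 had an unadjusted p under 0.05, beside 1.79%. From 1 week to 6 weeks these counts were also 0 and 0, beside 0.0278% and 2.29% of all genes. With 1 rat left out the median change of the 6 from 24 h to 1 week ran from -0.10 (without rat 25) to 0.51 (without rat 29). DESeq2 called 0 of the 6 in each of these 3 comparisons, beside 1.76% of all genes from 24 h to 6 weeks, 2.9% from 24 h to 1 week and 2.81% from 1 week to 6 weeks. Without rat 22 edgeR called 2 genes for the change from 1 week to 6 weeks, beside 0.0839% of all genes. For the change from 24 h to 6 weeks it called 3 without any one of rats 10, 11 and 22, beside 0.0835% to 0.104% of all genes.

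At each position on its own, no gene passed the test between times. In far tissue Mt-cyb went from 11500 ± 4027 CPM (SD, n = 3) at 24 h to 8173 ± 1745 (n = 5) at 1 week, and its log2 fold change from 24 h to 6 weeks was -0.70 ± 0.31 (SE). Mt-atp6, at 17670 ± 6050 CPM at 24 h, was 13060 ± 3038 at 1 week and 11100 ± 2871 at 6 weeks in far tissue, a log2 fold change of -0.68 ± 0.30 over the whole interval. These were the 2 of 6 genes with an unadjusted p under 0.05 (0.0482 and 0.0483), beside 4.1% of all 12995 genes. By edgeR 0 were called at 6 weeks against 24 h, beside 0% of all genes. All 6 log2 fold changes of far tissue over this interval were negative, with a median of -0.58 beside -0.05 over all genes. At 1 week against 24 h and at 6 weeks against 1 week in far tissue 0 of the 6 genes were called, beside 0% of all genes in each, and 0 had an unadjusted p under 0.05, beside 4.2% and 5.09%.

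In near tissue the median log2 fold change of the 6 genes was -0.39 at 1 week against 24 h, 0.08 at 6 weeks against 1 week and -0.25 at 6 weeks against 24 h. With 1 rat left out these medians ran from -0.79 to 0.35, -0.06 to 0.32 and -0.61 to 0.48, and both comparisons with 24 h were above 0 without rat 29. With library totals alone the median at 6 weeks against 24 h was 0.06. None was called by edgeR in these comparisons, beside 0.0469%, 0.00781% and 0.0234% of the 12799 genes tested, and 0 had an unadjusted p under 0.05, beside 5.67%, 5.02% and 4.2%. The standard errors in near tissue, 0.42 to 0.79, were larger than in far tissue, 0.26 to 0.34. DESeq2 called 0 of the 6 in all 6 comparisons between times, beside 1.99%, 1.25% and 2.05% of all genes in near tissue and 1.51%, 0.993% and 1.69% in far tissue, in the same order of comparisons. Whether near and far tissue differed in their course is the change of the near-far difference given above.

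Against naive cortex, near tissue had higher values for each gene at each time, with no call. At 24 h the log2 fold change against naive tissue at 100 µm ran from 0.65 ± 0.47 (SE) for Mt-co1 to 1.05 ± 0.50 for Mt-cyb, and Mt-co2 stood at 0.99 ± 0.49. These 24 h values moved most with rat 29: without it they ran from -0.12 (Mt-atp8) to 0.35 (Mt-cyb), with a median of 0.09 in place of 0.89, and without rat 25 the median was 1.34. At 1 week values ran from 0.40 (Mt-atp6) to 0.66 (Mt-cyb), and at 6 weeks from 0.45 (Mt-atp6) to 0.82 (Mt-cyb). Mt-cyb and Mt-co2 had the 2 highest values at 1 week and at 6 weeks. Neither edgeR nor DESeq2 called any of the 6 genes at any time (0 of 6), and by edgeR 0 had an unadjusted p under 0.05. Of the 13834 genes tested edgeR called 0.0578% at 24 h, 0.123% at 1 week and 0.0434% at 6 weeks, and DESeq2 2.89%, 2.23% and 1.32%. An unadjusted p under 0.05 by edgeR was found for 5.95%, 8.85% and 3.8% of them. The median over all genes was -0.17, -0.30 and -0.17 at these times. Naive libraries are numbered in another series and lie in another table, so in any comparison with naive tissue the implant and a batch cannot be told apart.

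Far tissue straddled naive tissue at 500 µm. Its median log2 fold change over the 6 genes was 0.35 at 24 h, -0.03 at 1 week and -0.23 at 6 weeks. Mt-co2 kept a positive value at all 3 times (0.65 ± 0.33, 0.31 ± 0.29 and 0.19 ± 0.30, ± SE), whereas Mt-atp6 went from 0.11 ± 0.30 to -0.32 ± 0.27 and -0.57 ± 0.28. The number called was 0 of 6 by edgeR and 0 of 6 by DESeq2 at each time, and no gene had an unadjusted p under 0.05 by edgeR (0 of 6). Of 13369 genes edgeR called 0.00748% at 24 h, 0.127% at 1 week and 0.0598% at 6 weeks, and DESeq2 5.09%, 5.81% and 4.93%. The share with an unadjusted p under 0.05 by edgeR was 7.17%, 9.43% and 7.82%. Near and far tissue were compared with different naive sums of the same 3 naive rats.

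**Figure D4:**
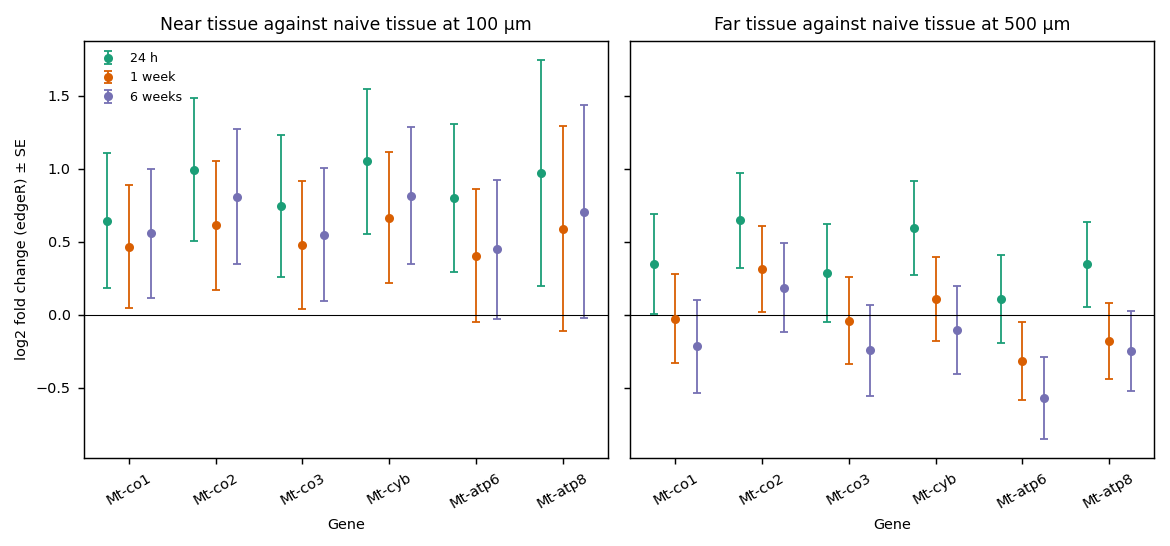
Log2 fold change ± standard error (y axis) of each gene in near tissue against naive tissue at 100 µm (left) and in far tissue against naive tissue at 500 µm (right), by time after implantation. All 18 near points lie above 0, and far points run from -0.57 to 0.65.

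In naive rats the positions themselves served as the background of the near-far comparison. Mt-co1 measured 17300, 12410 and 13490 CPM at 100 µm in rats n2, n3 and n5, against 15970, 11640 and 15430 at 500 µm. Mt-atp6 measured 16200, 17020 and 11340 CPM against 18240, 14640 and 18350. Neither gene had the same direction in all 3 rats. The log2 fold changes of 100 µm against 500 µm ran from -0.22 (Mt-atp6) to 0.03 (Mt-co3), with a median of -0.05. Over all genes the median was 0.405, and 65.4% of them were positive. With no implant the 6 genes thus also lay apart from the median of all genes, here below it. By edgeR 0 of the 6 genes were called and 0 had an unadjusted p under 0.05, and 0 were called by DESeq2. Of all 11839 genes 0% were called by edgeR, 5.07% had an unadjusted p under 0.05 and 11.5% were called by DESeq2. Without rat n3, Mt-atp6 was called by edgeR, beside 0.069% of all genes, at a log2 fold change of -0.45 ± 0.09 (SE, adjusted p = 0.00408), with 2 rats left.

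Ratios between members do not depend on how a library is scaled. Of 4 ratios tested over the 12 implanted rats, Mt-co1 to Mt-co2 differed between positions. It averaged 3.53 ± 0.312 (SD, n = 5) near and 2.93 ± 0.244 far at 1 week, and 3.23 ± 0.102 near and 2.84 ± 0.327 far at 6 weeks (n = 4). At 24 h it was 3.04 in both (± 0.255 near and ± 0.105 far, n = 3). The near minus far difference was 0.18 ± 0.21 (log2, mean ± SD), positive in 10 of 12 rats, with p = 0.0117 in a two-sided exact sign-flip permutation test and 0.0469 after Benjamini-Hochberg adjustment over the 4 ratios. It was positive in 1 of 3 rats at 24 h, 5 of 5 at 1 week and 4 of 4 at 6 weeks. The call was lost when any one rat other than 25 and 29 was left out (10 rats), with adjusted p-values up to 0.0938 (exact permutation test). Over all 12 omissions the difference ran from 0.14 to 0.20.

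The other ratios did not pass. Mt-co1 to Mt-co3 had a difference of -0.06 ± 0.11, with p = 0.043 (exact, adjusted 0.0859), and was higher near in 5 of 12 rats and in 0 of 3 at 24 h. Mt-atp8 to Mt-atp6, which lie on the same message, had a difference of -0.17 ± 0.51 (exact p = 0.298, adjusted 0.396). At 1 week this ratio varied less in far tissue, at 0.0337 ± 0.00189 (SD, n = 5), than in near tissue, at 0.0325 ± 0.0141, where it ran from 0.0116 to 0.0513. The lowest value was that of rat 20, whose near sum held 5119 detected genes and 730 Mt-atp8 counts. Naive tissue, with no implant, also had the larger SD at 100 µm, at 0.0322 ± 0.0117 against 0.031 ± 0.00473 at 500 µm (n = 3). Mt-cyb to Mt-co1 had a difference of 0.04 ± 0.14 (exact p = 0.396). In naive tissue Mt-co1 to Mt-co2 was 3.84 ± 0.178 at 100 µm and 3.75 ± 0.369 at 500 µm (n = 3), above the mean of every implanted group, and higher at 100 µm in 2 of 3 rats. That contrast with naive tissue carries the same limit on batch and was not tested.

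**Figure D5:**
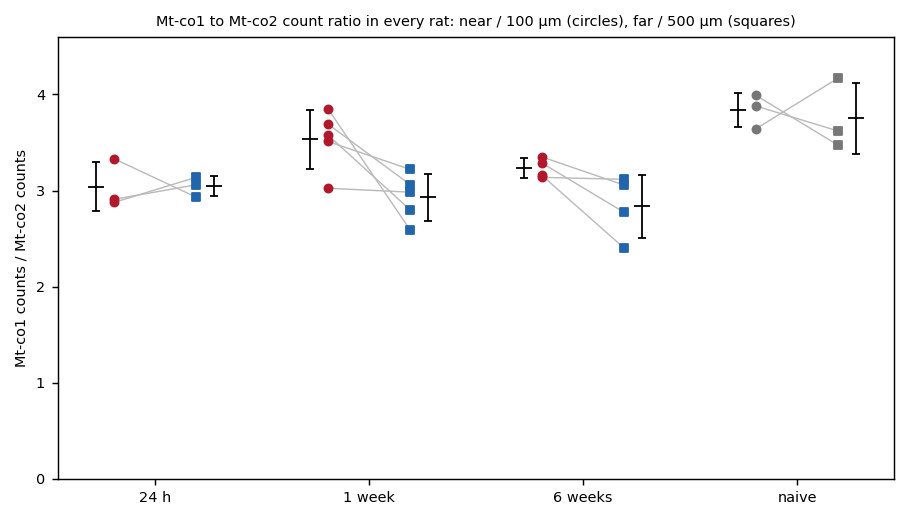
Ratio of Mt-co1 counts to Mt-co2 counts (y axis, from 0) in every rat, near or 100 µm (circles) and far or 500 µm (squares), with lines joining 1 rat and bars giving the mean ± SD. All 9 rats at 1 week and 6 weeks are higher near, and naive rats lie between 3.47 and 4.17.

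Across the 24 sums of implanted rats the 6 genes had similar profiles. Spearman correlations of log2 CPM between members ran from 0.865 (Mt-atp6 with Mt-atp8) to 0.982 (Mt-co1 with Mt-co3), and the pairs with Mt-co2 or Mt-atp8 were at 0.929 or below. These points share rats, libraries and the scaling factors, so the values are a description. Among the 1756 genes whose log2 CPM averaged 6 or more, the genes most like Mt-co1 were ENSRNOG00000029707 (0.978) and ENSRNOG00000029971 (0.976), which were also the 2 most like Mt-co3. ENSRNOG00000029971 was also among the 2 most like Mt-cyb (0.963) and Mt-atp6 (0.959). Mt-co2 and Mt-atp8 instead had ENSRNOG00000030478, one of the most abundant pair, as the most like (0.943 and 0.927). The median correlation of these 1756 genes with a member lay between -0.05 and 0.01, and ranking by Pearson correlation kept 7 of the 12 choices.

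The right and left libraries of 1 rat at 1 position usually differed little. Over 18 such pairs the median fold between hemispheres was 1.07 for Mt-cyb to 1.37 for Mt-atp8. The near libraries of rat 25 at 24 h stood apart. Mt-atp6 made up 0.214% of the counts in the left library and 1.45% in the right, 6.78-fold more, and Mt-atp8 differed 7.75-fold and Mt-co1 2.93-fold. The left library held 4910291 counts and 7961 genes, and the right 7873765 counts and 8465 genes. Without the left library the 24 h near-far difference was 0.27 in place of 0.14 for Mt-co1, 0.23 in place of 0.15 for Mt-co2, 0.30 in place of 0.17 for Mt-cyb, 0.395 in place of 0.22 for Mt-atp6 and 0.18 in place of -0.01 for Mt-atp8. edgeR then called 1 of the 6 genes at 6 weeks, beside 0.112% of all genes, and 2 for the mean of the times, beside 1.44%.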

How the data were processed

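RNA of laser-captured rat cortex was sequenced in 48 libraries. The authors deposited counts of reads for each Ensembl gene, and all are whole numbers. The submitters' processing notes list, with no role, build Rnor_6.0, STAR 2.6.1b, RSEM 1.3.1, DESeq2, FastQC 0.11.8 and cutadapt 2.3. Whether they are rounded RSEM estimates is not stated there. The library kit keeps strand, per the labels' protocols. The rat was the replicate: libraries were summed per rat and position. Near and far tissue were paired by the rat, which the labels give, and same-rat deviations correlated at 0.006 to 0.088 across genes. No 2 libraries of a group agreed within sampling noise (120 pairs compared, with chi-square at least 54.95 times its degrees of freedom).

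The main test was that of edgeR 4.0.16 (R 4.3.3; filterByExpr, TMM, robust quasi-likelihood fit) with Benjamini-Hochberg adjustment over all genes of a fit, at 0.05. It was also run on simulated data with the same spread setting for every gene and no differences between rats. Those data do not cover the changes of spread described above. A standard error is the log2 fold change over the root of the F statistic. Alternatives used DESeq2 1.42.0 or its size factors, library totals alone, scaling without the members (also without the 2 most abundant IDs), each rat left out, no low-count filter, no block, libraries not summed, only the rats of a time, naive positions summed, without the 4 libraries under 6000 genes, and Pearson ranking. The exact sign-flip test over all genes, scaling without the 2 most abundant IDs, leaving out the left near library of rat 25 and the look at quasi-likelihood spreads were chosen after seeing the data. Genes named are the 6 members and, for each, the 2 other IDs with the highest Spearman correlation. Members and lists were chosen with earlier results of these data known. The IDs matched 0 symbols of the reference table (18997 IDs), so 8 pathway lists and 6 marker lists, and sequences of the members, were not used here.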

Additional observations from a re-analysis of the deposited data

Results flagged for a closer look

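Rats of the groups of 4 and 5 and the libraries of each group were checked for a value far from the rest, in 84 sets of values, of which 4 met Dixon's 95% limit. Chance alone flags about 1 in 20 such sets, and the sets share rats. At 6 weeks rat 2 was highest near the implant by a wide gap for 3 genes: 23440 CPM for Mt-atp6, with the next rat at 18230, 7735 CPM for Mt-co2, with the next at 5838, and 15610 CPM for Mt-cyb, with the next at 12000. The far value of rat 17 for Mt-atp8 at 6 weeks, 628.3 CPM, was far above the next one at 376.4. Without rat 2 the 6-week near-far difference was 0.52 for Mt-co1.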

How the results depend on the processing

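The 6 genes kept 0 calls under every alternative run in the comparisons between times at 1 position, with naive tissue, at 24 h near against far and in the change of the near-far difference from 24 h to 1 week. Over all genes the counts called in these fits ran from 0 to 262, 1 to 777, 0 to 532 and 0 to 418, in that order. The highest counts, all with DESeq2's Wald test, were 2.05%, 5.81%, 3.69% and 2.9% of the genes tested. The comparisons in which some of the 6 genes were called follow. For near against far at 1 week, at 6 weeks and for the mean of the times, 4, 4 and 4 genes were called with library totals alone, 4, 4 and 5 with DESeq2's Wald test, 4, 5 and 5 without the low-count filter, and 2, 5 and 4 with the 4 libraries under 6000 detected genes left out, where rat 20 left the fit. The shares of all genes called in these fits were 0.5%, 0.271% and 2.38% with library totals, 9.07%, 2.3% and 8.22% with DESeq2, 0.248%, 0.173% and 0.797% without the filter and 0.211%, 0.288% and 1.58% without those libraries, against 0.396%, 0.0764% and 1.51% as reported. DESeq2 size factors gave 1 call for the mean, beside 1.07% of all genes. Leaving out the left near library of rat 25 gave 1 at 6 weeks, beside 0.112%, and 2 for the mean, beside 1.44%. Leaving out 1 rat gave 0 to 4 calls at 1 week, 0 to 5 at 6 weeks and 0 to 5 for the mean. The shares of all genes in those fits were 0.132% to 0.528%, 0.0641% to 0.272% and 0.749% to 1.68%. The change of the near-far difference from 24 h to 6 weeks had 3 calls without the low-count filter, beside 0.0751% of all genes. It had 3 with those 4 libraries left out, beside 0.127%, and 0 to 3 with 1 rat left out, beside 0% to 0.104%. The change from 1 week to 6 weeks had 0 to 2 with 1 rat left out, beside 0% to 0.0839%. Naive 100 µm against 500 µm had 0 to 1 with 1 rat left out, beside 0% to 0.0712% of all genes. In the 7 edgeR fits where a trend spread was used for the genes other than Mt-atp8, it was 0.021 to 0.113 against their own 0.151 to 0.449. The cause of the other changes was not tested.

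Directions changed for values near 0 and, when 1 rat was left out, also for some larger values. For near against far at 24 h, Mt-atp8 had a main value of -0.01 and was 0.18 with DESeq2 size factors, 0.18 with the Wald test of DESeq2, 0.18 without the left near library of rat 25 and 0.016 with only the rats of that time. With library totals alone Mt-co1 was -0.01 and Mt-co2 -0.005 at 24 h, and Mt-atp6 was -0.013 for far against naive tissue at 24 h. Leaving out 1 rat, the 24 h values near against far ran from -0.054 to 0.36 for Mt-co1, -0.084 to 0.30 for Mt-co2, -0.008 to 0.52 for Mt-co3, -0.15 to 0.46 for Mt-cyb, -0.12 to 0.60 for Mt-atp6 and -0.49 to 0.38 for Mt-atp8, each lowest without rat 29 and highest without rat 25. At 1 week they ran from -0.011 to 0.29 for Mt-co2 (main value 0.15) and -0.075 to 0.62 for Mt-atp8 (main value 0.26). Near against naive tissue at 24 h, Mt-atp8 had a main value of 0.97 and ran from -0.12 to 1.49. Far against naive tissue, Mt-atp6 ran from -0.12 to 0.37 at 24 h and Mt-co2 from -0.051 to 0.34 at 6 weeks. The other genes are not listed singly for that comparison. Its median over the 6 genes at 1 week, -0.03 in the main fit, ran from -0.17 to 0.09 with 1 rat left out. Changes of direction of single genes are also not listed between times or between naive positions. The near minus far ratio of Mt-co1 to Mt-co2 ran from 0.14 to 0.20. Without the replicate block that pairs near and far tissue of a rat, Mt-atp8 was 0.40 at 24 h. In every near-far and naive comparison 0 of the 6 genes were then called, as in the main fit. Of all genes 0% were called without the block near against far at 24 h, 0.0417% at 1 week, 0.00694% at 6 weeks and 0.632% for the mean of the times. The main fit called 0.132%, 0.396%, 0.0764% and 1.51%. For the changes between times and the naive positions 0% were called without the block. The scaling moved the median of all genes for the mean of the times from -0.39 to -0.53 with library totals and to -0.24 with DESeq2 size factors. Over all genes, the count called for the mean of the times was 217 in the main fit, 1183 with DESeq2 and 0 in the exact sign-flip test over the rats (100 genes reached its smallest p). Counts were lowest for Mt-atp8, whose lowest sum was 730.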
